A study of Mus musculus with 18 samples.

Results

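The immunity-related GTPases of the p47 family were analysed in bone marrow-derived macrophages (BMDMs) cocultured with renal tubular epithelial cells (TECs). The members were chosen by gene symbol, as a family, with earlier results of these data known. They were Irgm1, Irgm2, Igtp, Iigp1, Tgtp1, Tgtp2, Ifi47 and Gm12250. Of these 8 genes, 7 had a row among the 25926 genes of the expression table, and Gm12250 was not analysed in the values below for want of a row.

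These GTPases are proteins of cell-autonomous immunity that macrophages make in response to interferons. In infected mouse cells they gather on the membrane around intracellular parasites and bacteria and help to break it open. The regulatory members, called GMS, carry a methionine in place of the lysine of the nucleotide-binding loop. They are Irgm1 (also LRG-47), Irgm2 (GTPI) and Igtp (Irgm3), which sit on host membranes and hold the others inactive there. The effector members, called GKS, keep the lysine and load onto the vacuole. They are Iigp1 (Irga6), Tgtp1 and Tgtp2 (which both encode Irgb6), Ifi47 (Irgd, or IRG-47) and Gm12250 (Irgb10).

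RNA from 18 samples was sequenced, 6 in each of the groups NC, COM and COM+Met. In every group the macrophages came from the marrow of C57BL/6J mice, were differentiated with 50 ng/mL M-CSF over 7 days and sat above the TECs in a Transwell (0.4 μm pores). The NC macrophages received PBS and the TECs below them no crystals. The COM macrophages received PBS too, above TECs exposed to calcium oxalate monohydrate (COM) crystals at 100 μg/mL for 24 h. The COM+Met macrophages received Met at 5.0 mM for 24 h, above TECs exposed to crystals in the same way. The labels do not spell out Met. Nor do they tell whether a group of 6 stands for 6 cultures or mice, so the p-values below measure the spread among the samples sequenced, and this spread may be technical. Values are FPKM, that is fragments per kilobase of a gene and scaled to the mapped fragments of the sample, so they can be compared between genes, and the read depth behind them is unknown.

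Some libraries stood apart over all genes. Correlations of log2(FPKM + 1) ran from 0.888 to 0.995 between COM samples and from 0.938 to 0.995 between NC samples, against 0.989 to 0.995 between COM+Met samples. The libraries COM-1 to COM-3 correlated at 0.992 or more, and with COM-4 and COM-5 at 0.948 to 0.951. COM-6 stood furthest off, at up to 0.935 with COM-4 and COM-5 and no more than 0.891 with the other 3. COM was therefore also analysed with COM-1 to COM-3 alone and with COM-4 to COM-6 alone, and NC was also analysed without NC-5 and NC-6, which differed from the other NC libraries. All 10 macrophage markers reached 1 FPKM, with sums of 10714 to 17193 FPKM over the samples. Of 15 tubular epithelial markers, 13 stayed below 1 FPKM in every sample and 4 were at 0 throughout. Their sum ran from 10.9 to 18.2 FPKM in NC, mostly from Cdh1, and from 0.0575 to 1.37 FPKM in the 12 other samples. The summed level of 12 neutrophil markers ran from 546 to 1056 FPKM in NC, from 1171 to 1842 FPKM in COM and from 723 to 848 FPKM in COM+Met. Of the 8 tested in COM against NC, 4 were called lower (S100a9, Ngp, Ltf and Cxcr2) and 1 higher, with a median of -1.21. Ltf and Cxcr2 averaged 0.156 and 0.361 FPKM in COM, so they entered the test only through NC. The higher one was Lcn2, which activated macrophages also make, at a mean of 1133 FPKM in COM against 23.5 FPKM in NC. In COM+Met against COM, 4 of 5 tested were called lower (Camp, Mmp8, S100a8 and S100a9) and 0 higher, with a median of -1.29. Over all genes, 1.61% were called lower there. In COM+Met against NC, 6 of 8 tested were called lower and 1 higher. Of 13 markers of T and NK cells, the main makers of interferon gamma, 8 stayed below 1 FPKM, with sums of at most 6.00 FPKM. The part of these other cell types in the results was not tested, and in such bulk samples fewer cells of a type and less RNA per cell cannot be told apart.

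Interferons act on promoters through the interferon-stimulated response element (ISRE), which binds interferon regulatory factors such as IRF9 in complexes, and through the gamma-activated sequence (GAS). RefSeq promoter windows on GRCm38.p6, each of 300 bases from 250 before to 50 after the annotated start, were found for 7 members, all on chromosome 11. The stretches with a match are shown because the letters of 1 or both elements stand there close to the start. Capitals mark matches to the ISRE core GAAANNGAA or to the GAS TTCNNNGAA, searched on both strands.
Irgm1, chr11:48871416-48871470, minus strand: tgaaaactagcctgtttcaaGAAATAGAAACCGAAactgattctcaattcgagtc
Irgm2, chr11:58214882-58214941, plus strand: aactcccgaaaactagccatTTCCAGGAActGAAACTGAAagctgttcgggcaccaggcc
Igtp, chr11:58199491-58199550, plus strand: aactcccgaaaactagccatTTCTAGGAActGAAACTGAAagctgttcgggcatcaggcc
Tgtp1, chr11:48992295-48992354, minus strand: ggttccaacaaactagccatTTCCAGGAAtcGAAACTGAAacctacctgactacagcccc
Tgtp2, chr11:49064254-49064313, minus strand: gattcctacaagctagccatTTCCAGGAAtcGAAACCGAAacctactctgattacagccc
Gm12250, chr11:58183733-58183826, plus strand: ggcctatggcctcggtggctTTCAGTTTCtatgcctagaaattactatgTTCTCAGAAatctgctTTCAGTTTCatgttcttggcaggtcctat

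The ISRE core was found in 6 of the 7 windows and GAS in 5 of 7, against 8.56% and 8.3% of all 32851 promoter windows of this length. Both stood in 5 of the 7 windows, and in 1.07% of all windows. The stretches shown for Irgm2 and Igtp are near-identical, and those for Tgtp1 and Tgtp2 are alike around the matches. The windows are therefore not independent, and these counts are a description. In Irgm2, Igtp, Tgtp1 and Tgtp2 the GAS came first and the ISRE core followed after 2 bases, in the direction of transcription. This arrangement was thus shared by regulatory and effector members. Irgm1 held 2 overlapping ISRE cores and no GAS, and Gm12250 held 2 ISRE cores on the opposite strand with a GAS between them. The Ifi47 window held neither set of letters, and no window was given for Iigp1. A match is a description of the letters and not a measured binding site. The map of the matches shows them from 90 to 16 bases before the start.

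**Figure D1:**
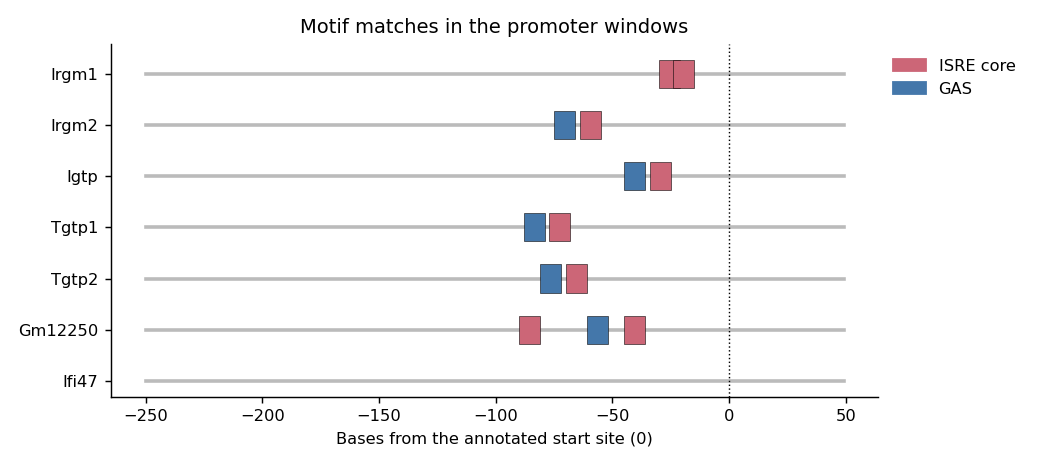
Positions of ISRE core (red) and GAS (blue) matches in the promoter windows of 7 members, in bases from the RefSeq start site at 0, with the window as a grey line. Irgm2, Igtp, Tgtp1 and Tgtp2 each have a GAS followed after 2 bases by an ISRE core, Irgm1 has overlapping ISRE cores, and Ifi47 has no match.

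On GENCODE M21 (GRCm38), which is not the build named by the submitters, the members of chromosome 11 formed 2 clusters. Irgm1 lay at chr11:48861968-48871683, Tgtp1 at chr11:48985327-48994172 and Tgtp2 at chr11:49057194-49064206, all on the minus strand, with Ifi47 at chr11:49076587-49096974 on the plus strand. Igtp (chr11:58199556-58207591) and Irgm2 (chr11:58199618-58222782) overlapped on the plus strand and shared 162 exonic base pairs, 8.01% of the exons of Igtp and 4.39% of those of Irgm2. Gm12250, at chr11:58187739-58189012, is annotated there as a processed pseudogene.

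Transcripts of Tgtp1 and Tgtp2 were near-identical over most of their length. Of the stretches of 50 bases in Tgtp1 transcripts, 79.4% also occurred in Tgtp2, and of those in Tgtp2 85.8% occurred in Tgtp1. How the authors' quantification divided such reads is not given in the sources used here, so the values of each of the pair are uncertain and their sum is given too. Igtp shared 11.8% of its stretches with Irgm2, Ifi47 shared 2.54% with Olfr56, whose span covers it, and Iigp1 and Irgm1 shared 1.69% and 0.31% with other genes.

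The regulatory members were higher in every COM sample than in any NC sample. Irgm1, which guards host membranes against the effectors and is needed for resistance to many intracellular pathogens, had NC values, from sample 1 to sample 6, of 21.4, 24.0, 17.3, 17.3, 10.8 and 10.9 FPKM. Its COM values in the same order were 73.4, 71.3, 71.2, 192, 191 and 184 FPKM and its COM+Met values 170, 176, 174, 179, 176 and 174 FPKM. The NC values lay below all others, and the COM values split into a lower and a higher set with the COM+Met values between them.

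Irgm2, a regulator found on Golgi and vacuole membranes, measured 7.38, 8.67, 6.54, 7.93, 3.41 and 4.26 FPKM in NC and 14.9, 15.8, 16.3, 64.6, 65.2 and 79.7 FPKM in COM. In COM+Met it measured 49.7, 44.5, 45.7, 45.4, 44.5 and 44.7 FPKM. Igtp, a regulator of the endoplasmic reticulum and lipid droplets, measured 6.41, 8.56, 7.02, 6.90, 5.60 and 5.78 FPKM in NC, 18.8, 20.1, 20.8, 112, 109 and 85.6 FPKM in COM, and 79.4, 70.7, 72.7, 76.1, 73.5 and 76.3 FPKM in COM+Met. Both shared with Irgm1 the lower and the higher COM set, and every COM value lay above every NC value. Within a set the order differed. COM-6 was the highest of COM-4 to COM-6 for Irgm2 but the lowest of them for Irgm1 and Igtp.

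Among the effectors, Ifi47 behaved like the regulators in level and size of change. It measured 11.2, 13.6, 11.3, 11.1, 5.57 and 5.11 FPKM in NC, 44.5, 50.2, 50.9, 142, 134 and 99.3 FPKM in COM, and 101, 101, 99.8, 98.8, 98.4 and 105 FPKM in COM+Met. COM-6 lay within the COM+Met range, and the other COM samples lay outside it.

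The other 3 effectors were near 0 in NC and climbed most in COM-4 to COM-6. Tgtp1 measured 0.476, 0.344, 0.417, 0.272, 0.167 and 0.0496 FPKM in NC, 1.54, 1.56, 1.27, 32.6, 33.7 and 38.6 FPKM in COM, and 11.5, 11.1, 10.3, 11.0, 10.9 and 9.95 FPKM in COM+Met. Tgtp2 measured 0.893, 1.01, 0.736, 0.561, 0.104 and 0.0682 FPKM in NC, 4.83, 4.33, 4.30, 73.5, 75.3 and 78.4 FPKM in COM, and 35.2, 32.9, 32.7, 34.6, 33.4 and 31.8 FPKM in COM+Met. Every COM value of both genes lay above every NC value. Summed, the pair ran from 0.118 to 1.37 FPKM in NC, from 5.57 to 117 FPKM in COM and from 41.8 to 46.7 FPKM in COM+Met.

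Iigp1, the effector whose structure has been studied most, lies apart from the others, at chr18:60376027-60392634 on the plus strand. It measured 0.540, 0.322, 0.178, 0.209, 0.0787 and 0.0367 FPKM in NC, 1.17, 0.826, 0.517, 29.0, 29.8 and 48.2 FPKM in COM, and 11.8, 15.7, 16.0, 16.3, 17.5 and 15.0 FPKM in COM+Met. COM-3 lay just below NC-1, so the NC and COM values overlapped. The plot of values by sample shows the lower and the higher COM set for each member.

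**Figure D2:**
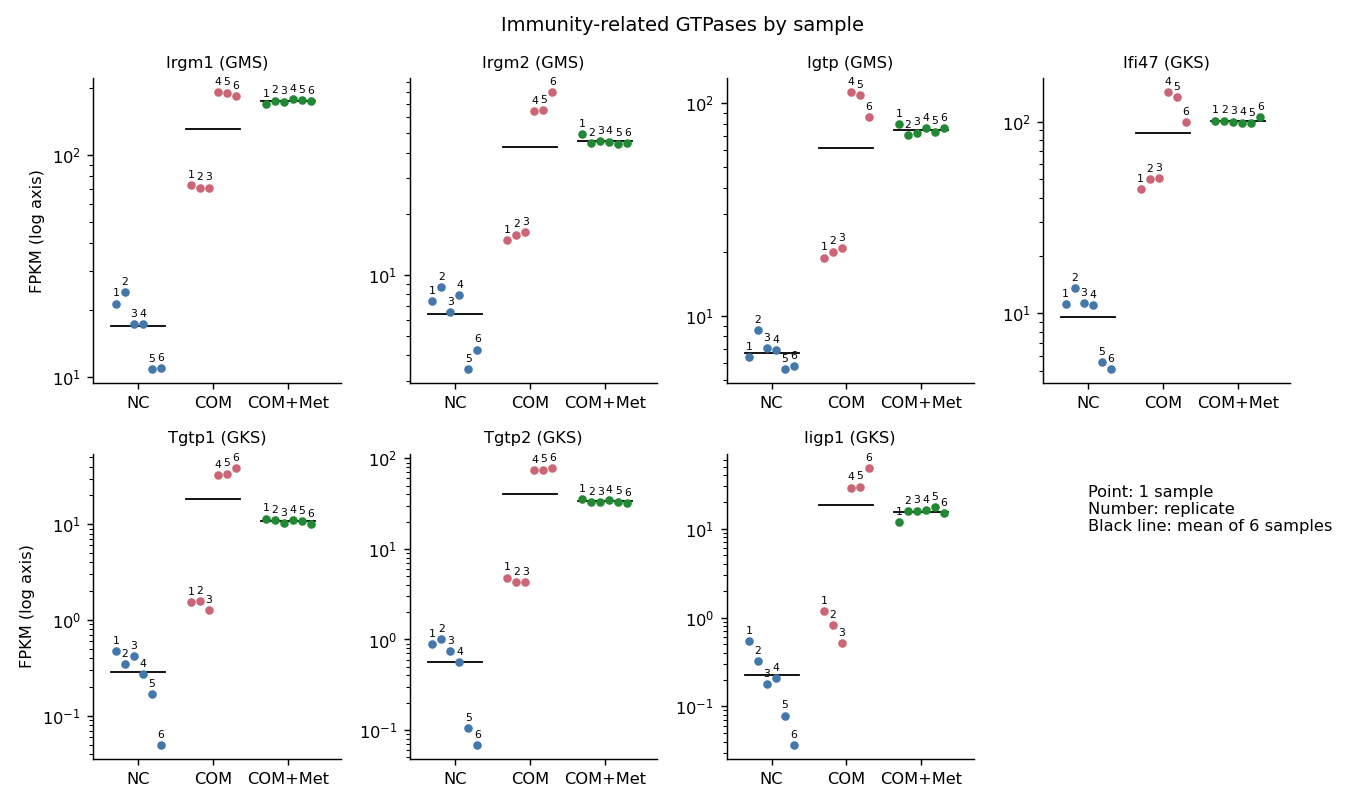
FPKM of each member in every sample on a log axis, with the sample number above each point and a black line at the mean of 6 samples, for NC (blue), COM (red) and COM+Met (green). COM-1 to COM-3 sit below and COM-4 to COM-6 above the COM+Met samples, except for Ifi47 in COM-6, and the COM+Met samples lie close together.

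The order of the mean levels was nearly fixed. In NC, Irgm1 (16.9 ± 5.37 FPKM, SD, n = 6) was followed by Ifi47 (9.63 ± 3.45), Igtp (6.71 ± 1.07) and Irgm2 (6.37 ± 2.10), then by Tgtp2 (0.562 ± 0.398), Tgtp1 (0.288 ± 0.159) and Iigp1 (0.227 ± 0.183). Among neighbours in this order, the ranges of Irgm2 and Tgtp2 were separate and the other neighbours overlapped. In COM+Met the order was Irgm1 (175 ± 2.95 FPKM), Ifi47 (101 ± 2.39), Igtp (74.8 ± 3.10), Irgm2 (45.7 ± 1.98), Tgtp2 (33.5 ± 1.26), Iigp1 (15.4 ± 1.95) and Tgtp1 (10.8 ± 0.553), and no ranges of neighbours overlapped. In COM, where means ran from 130 ± 64.0 FPKM (Irgm1) to 18.2 ± 18.5 FPKM (Tgtp1), all neighbours overlapped. The places of Tgtp1 and Tgtp2 depend on how their shared reads were divided. Their sum in COM+Met, at 41.8 to 46.7 FPKM, overlapped the 44.5 to 49.7 FPKM of Irgm2.

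The samples of a group differed most in COM. The coefficient of variation of a member ran from 49.1% (Irgm1) to 111% (Iigp1) in COM, from 16.0% (Igtp) to 80.6% (Iigp1) in NC, and from 1.69% (Irgm1) to 12.7% (Iigp1) in COM+Met. The mean of COM-4 to COM-6 over that of COM-1 to COM-3 was 2.58 for Ifi47, 2.62 for Irgm1, 4.46 for Irgm2, 5.16 for Igtp, 16.9 for Tgtp2, 24.0 for Tgtp1 and 42.5 for Iigp1. The members with the least RNA in NC thus had the widest spread within COM. In NC, all 7 members were lower in NC-5 and NC-6 than in NC-1 to NC-4, by a ratio of means of 1.27 (Igtp) to 9.28 (Tgtp2).

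The summed level of the 7 members ran from 25.7 to 56.5 FPKM in NC (median 43.8), from 159 to 646 FPKM in COM (median 389) and from 451 to 461 FPKM in COM+Met. The effectors made up 20.1% to 29.0% of this sum in NC, 32.7% to 43.1% in COM and 34.8% to 35.6% in COM+Met. The share of effectors in NC lay below that in every other sample. The stacked plot of levels shows Irgm1 and Ifi47 as the largest parts in each group.

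**Figure D3:**
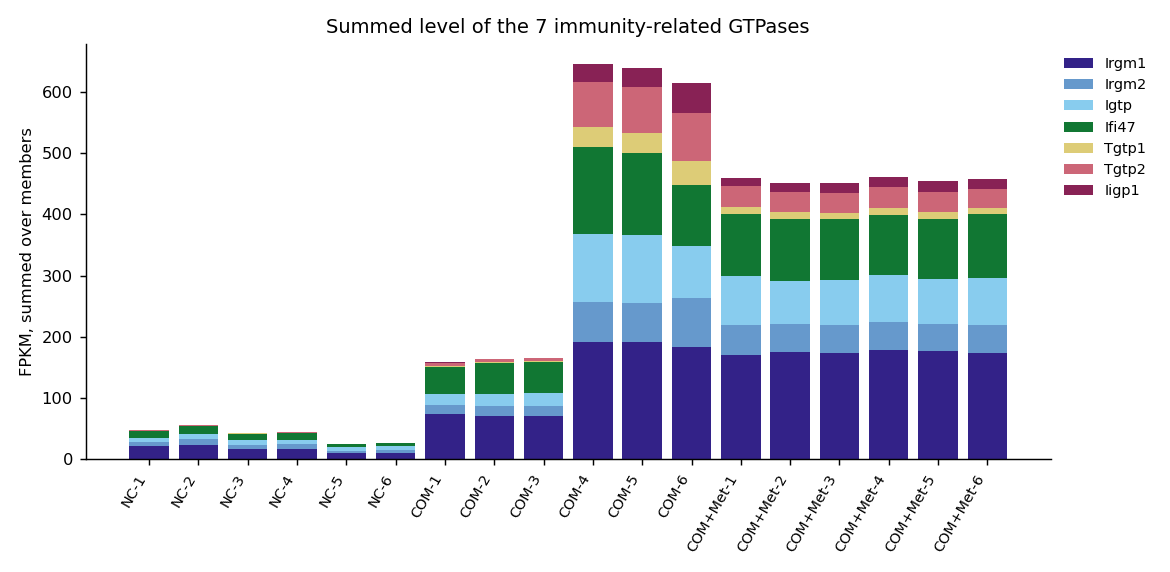
FPKM of the 7 members stacked for each of the 18 samples, on a linear axis from 0. The sums run from 25.7 to 56.5 in NC, from 159 to 646 in COM and from 451 to 461 in COM+Met.

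The first comparison asked how macrophages above crystal-exposed TECs differed from those above unexposed TECs. All 7 members with a row were called higher in COM than in NC, where a call required both a limma adjusted p under 0.05 and a 2-fold difference or more on log2(FPKM + 1). Over all 10900 genes tested, 5.99% were called higher and 11.7% lower. The members tested passed the filter of a mean of 1 FPKM, but Iigp1, Tgtp1 and Tgtp2 did so only through their COM samples. The count of 7 is therefore a description, and so are the p-values of Iigp1, Tgtp1 and Tgtp2 below, by limma and by permutation.

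Among the regulators, Irgm1 rose by 2.77 ± 0.32 on the log2 scale (SE, n = 6 and 6, limma adjusted p = 2.06e-05). Igtp rose by 2.60 ± 0.47 (limma adjusted p = 0.000554) and Irgm2 by 2.27 ± 0.45 (limma adjusted p = 0.00108). Their ratios of mean FPKM were 7.69, 9.12 and 6.71. Among the effectors, Ifi47 rose by 2.96 ± 0.34 (limma adjusted p = 1.72e-05), a ratio of means of 9.02. Tgtp2 rose by 3.76 ± 0.77 (limma adjusted p = 0.00134), Tgtp1 by 2.87 ± 0.77 (limma adjusted p = 0.00723) and Iigp1 by 2.73 ± 0.86 (limma adjusted p = 0.0174). The ratios of their means were 71.4, 63.3 and 80.2. On the log2 scale these ratios are 6.16, 5.98 and 6.33, above the fitted differences, which are means of log2(FPKM + 1). With a pseudocount of 0.1 the fitted differences were 5.15, 4.38 and 4.28. Every COM sample exceeded every NC sample for 6 of the 7 members, the exception being Iigp1, and 8.6% of all genes tested showed this. The two-sided exact permutation p was 0.00433 for Iigp1 and 0.00216 for each other member, the smallest that 924 splits of 12 samples allow.

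FPKM values of most genes were lower in COM, with a median change of -0.27 over all genes tested. Relative to this median the members rose by 2.54 (Irgm2) to 4.03 (Tgtp2). With median-of-ratios size factors the median change was 0.0048 and the share of higher among called genes went from 33.9% to 51.3%, and with quantile normalisation it went to 48.4%. The 7 members were called higher under each of these scalings.

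The calls were repeated without the libraries that stood apart. The division of the COM samples runs along with the members' own levels, so leaving out the lower set enlarges the differences. The fits with part of COM are therefore a description. The share of all genes called is not given for them or for the fit without NC-5 and NC-6. The counts of members called in these fits are therefore descriptions too. Without COM-1 to COM-3 all 7 members were called higher, by 3.31 (Irgm2) to 5.66 (Tgtp2) on the log2 scale. Without COM-4 to COM-6, Irgm1 (2.08), Irgm2 (1.23), Igtp (1.45), Tgtp2 (1.85) and Ifi47 (2.29) were called higher, and Iigp1 and Tgtp1 had means below the filter and were not tested. Without NC-5 and NC-6, 6 members were called higher, and Iigp1 gave 2.63 ± 1.04 (limma adjusted p = 0.0628). With limma's sample weights Iigp1 gave 0.67 ± 0.35 (limma adjusted p = 0.111).

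The plot of changes sets the comparisons side by side. They share samples, so their values are not independent of each other.

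**Figure D4:**
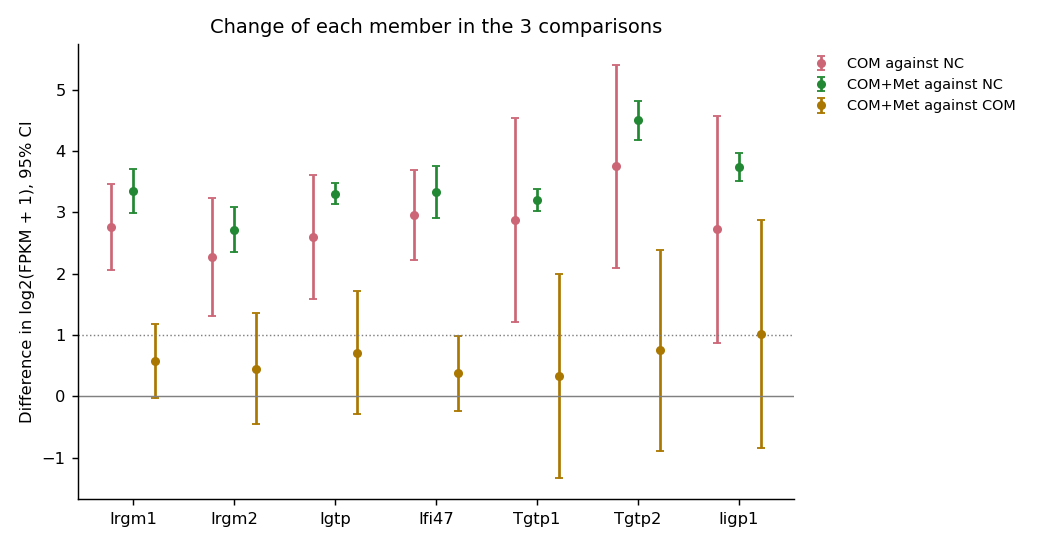
Fitted difference in log2(FPKM + 1) of each member with its 95% confidence interval, for COM against NC (red), COM+Met against NC (green) and COM+Met against COM (ochre). A solid line marks 0 and a dotted line a 2-fold change. Both comparisons with NC lie above 0 for all 7 members, and the interval of COM+Met against COM includes 0 for each.

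The next comparison asked what Met changed in macrophages above crystal-exposed TECs. By limma, COM+Met differed from COM in 0 of the 7 members in either direction, with 0 also at an unadjusted p under 0.05 in limma or in the exact permutation test, while 0.608% of the 10364 genes tested were called higher and 1.61% lower. With limma's sample weights, which count samples far from the others of their group less, 6 of the 7 members (all but Ifi47) were called higher. Far more of all genes were called in either direction with these weights than without them. The share called higher among all genes with them is not given, so the count of 6 is a description. Without weights the differences, COM+Met minus COM, had wide intervals. Irgm1 differed by 0.58 (95% interval -0.03 to 1.19, limma adjusted p = 0.193), Irgm2 by 0.45 (-0.46 to 1.35, 0.518), Igtp by 0.71 (-0.29 to 1.71, 0.341) and Ifi47 by 0.37 (-0.23 to 0.98, 0.409). Tgtp1 differed by 0.33 (-1.34 to 1.99, 0.814), Tgtp2 by 0.75 (-0.89 to 2.38, 0.553) and Iigp1 by 1.01 (-0.85 to 2.88, 0.472). A change of 2-fold in either direction lies inside the interval of Tgtp1 alone, and one of 2-fold upwards lies inside that of every member but Ifi47.

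The direction depended on the scale. Ratios of mean FPKM, COM+Met over COM, were 1.34 for Irgm1, 1.22 for Igtp, 1.16 for Ifi47 and 1.07 for Irgm2, but 0.843 for Iigp1, 0.834 for Tgtp2 and 0.592 for Tgtp1, whose differences of mean log2 values were positive. The lower COM-1 to COM-3 weigh more on the log scale and the higher COM-4 to COM-6 more on the linear scale.

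The COM samples lay on both sides of the COM+Met samples. For 6 members 3 COM samples lay below and 3 above all COM+Met samples, and for Ifi47 3 lay below, 2 above and 1 within. Every COM+Met sample exceeded every COM sample for 0 of 7 members and for 5.83% of all genes tested.

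Fits with part of the COM samples went in opposite directions. The division into COM-1 to COM-3 and COM-4 to COM-6 was known from earlier results of these data and runs along with the members' own levels, so these fits are given as a description, with no p. Against COM-1 to COM-3 alone, the limma thresholds were passed upwards by all 7 members, beside 2.28% of all genes tested. The differences were 1.04 (Ifi47), 1.27 (Irgm1), 1.49 (Irgm2), 1.86 (Igtp), 2.26 (Tgtp1), 2.65 (Tgtp2) and 3.16 (Iigp1). Against COM-4 to COM-6 alone, all 7 differences were negative and 3 effectors passed the thresholds downwards, beside 1.28% of all genes tested. These were Tgtp1 (-1.61 ± 0.079, SE), Tgtp2 (-1.16 ± 0.066) and Iigp1 (-1.13 ± 0.17), with COM+Met means at 0.308, 0.442 and 0.431 of the COM means. The other members differed by less than 2-fold, Irgm2 by -0.59 ± 0.086, Igtp by -0.44 ± 0.096, Ifi47 by -0.29 ± 0.11 and Irgm1 by -0.11 ± 0.064. Without COM-6 alone, 0 members were called in either direction, as with all 6 samples. The labels name no difference between the COM libraries. Neutrophil markers moved with this division in both directions. Lcn2 ran from 640 to 721 FPKM in COM-1 to COM-3 and from 1533 to 1672 FPKM in COM-4 to COM-6, whereas S100a8 ran from 276 to 301 FPKM in the former and from 28.4 to 56.4 FPKM in the latter. S100a9 (12.2 to 17.8 and 1.34 to 2.79 FPKM) and Ngp (2.17 to 3.41 and 0.254 to 0.446 FPKM) were likewise lower in the latter. The part of these markers in the result was not tested. The plot of the split fits shows that no member had the same sign in both.

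**Figure D5:**
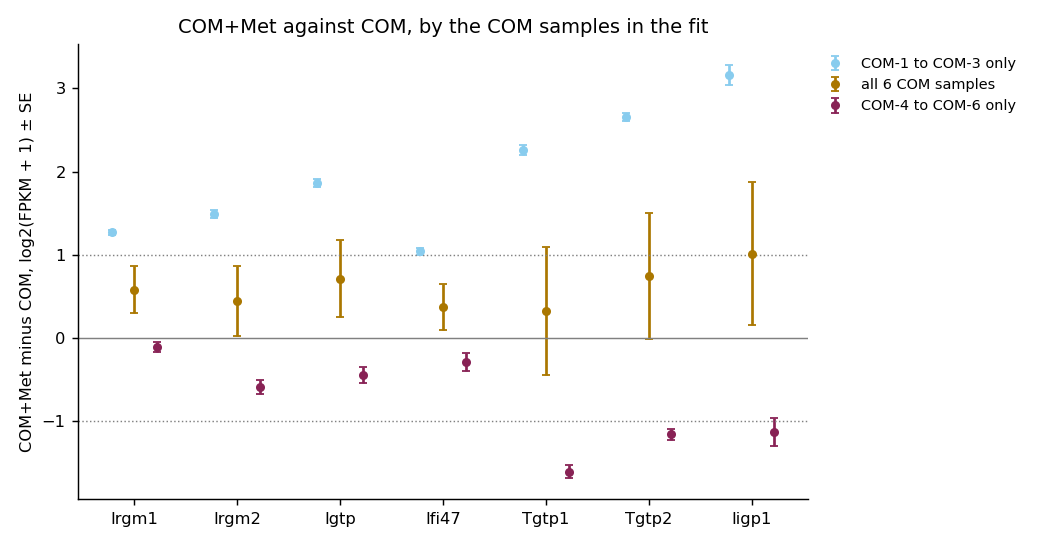
Fitted difference in log2(FPKM + 1), COM+Met minus COM, of each member with its SE, using COM-1 to COM-3 only (light blue), all 6 COM samples (ochre) or COM-4 to COM-6 only (purple). Dotted lines mark 2-fold changes. The light blue points run from 1.04 to 3.16 and the purple points from -1.61 to -0.11.

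Against NC, the 7 members were all called higher in COM+Met, beside 5.66% of the 10786 genes tested, with 13.6% called lower. The rises were 3.35 ± 0.17 for Irgm1 (limma adjusted p = 1.76e-09), 2.72 ± 0.17 for Irgm2, 3.31 ± 0.079 for Igtp and 3.33 ± 0.20 for Ifi47. Tgtp1 rose by 3.20 ± 0.081, Tgtp2 by 4.51 ± 0.15 and Iigp1 by 3.74 ± 0.11, with limma adjusted p of at most 1.22e-08 for every member. Every COM+Met sample exceeded every NC sample for all 7 members, as for 14.1% of all genes tested, with an exact permutation p of 0.00216 each. Ratios of means ran from 7.19 (Irgm2) to 67.6 (Iigp1). This comparison too rested on Iigp1, Tgtp1 and Tgtp2 passing the filter through the treated samples. The count of 7 and the p-values of those genes are therefore a description here as well.

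Transcripts of the interferons, the ligands that induce these GTPases, were at or close to 0 FPKM. Ifng, interferon gamma, was listed at 0 in 16 samples and reached at most 0.0622 FPKM. Of the interferon alpha and lambda genes listed, Ifna1 was listed at 0.0443 FPKM in 1 sample and the rest at 0. Ifnb1, interferon beta, reached at most 0.194 FPKM in NC and 0.184 FPKM in COM-1 to COM-3, and measured 0.809, 0.835 and 0.760 FPKM in COM-4 to COM-6 and 0.195 to 0.653 FPKM in COM+Met. None of these passed the filter, and all Ifnb1 values lay below 1 FPKM, with NC-4 above each of COM-1 to COM-3. The 4 genes of the ligand list that passed the filter are interleukins and not interferons. Of these, Il12b (5.65 ± 0.50), Il12a (4.06 ± 0.24) and Il27 (2.02 ± 0.42) rose in COM and Il18 fell by 1.11 on the log2 scale. Il12a averaged 0.707 FPKM in NC and passed the filter only through its COM samples. The subunits of IL-12, unlike the GTPases, did not divide the COM samples: the COM values of Il12b, from sample 1 to sample 6, were 161, 195, 195, 158, 177 and 215 FPKM.

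Receptors and their kinases changed less. The counts here and in the lists below stand beside 5.99% higher and 11.7% lower over all genes tested in COM against NC. Of the 7 receptors and kinases, 2 rose and 0 fell, and their median was 0.50. They were Jak2 (2.29 ± 0.28), a kinase of the interferon gamma receptor, and Ifnar2 (1.39 ± 0.16), a chain of the type I receptor. Tyk2 (0.60), Ifngr2 (0.50), Ifnar1 (0.35) and Jak1 (0.05) were not called. Ifngr1, the chain that binds interferon gamma, gave -0.81 (limma adjusted p = 0.00135), short of 2-fold, and in COM+Met against NC it fell by 1.09 on the log2 scale (limma adjusted p = 2.27e-06).

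Among 12 transcription factors of interferon signalling, 7 rose in COM and 0 fell, with a median of 1.27. Irf7, a driver of type I interferon genes, rose by 6.05 ± 0.32. Batf2 (2.87), Stat2 (2.26), Nlrc5 (2.16), Irf9 (1.40) and Irf1 (1.13) were among the others called. Batf2 averaged 0.777 FPKM in NC and passed the filter only through its COM samples. Irf8 (0.84), Stat3 (0.62), Irf2 (-0.13), Irf3 (-0.32) and Ciita (-0.70) were not called. Irf7 measured 449, 485, 496, 854, 831 and 451 FPKM in COM, so COM-6 stood with the lower set. Irf9 kept to 28.5 to 34.7 FPKM over the 6 COM samples.

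Feedback inhibitors rose in 4 of 8 cases in COM and fell in 0, led by Isg15 (5.44 ± 0.54), a ubiquitin-like modifier, and Usp18 (4.38 ± 0.60), which removes it. Ptpn6 (-0.17) and Pias1 (-0.08) were not called.

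The guanylate-binding proteins (GBPs), larger interferon-induced GTPases that join the p47 family on vacuoles, had the highest median of the lists fixed, 3.85 in COM against NC. Each of the 9 tested passed as higher. Gbp4, Gbp8, Gbp9 and Gbp10 averaged under 1 FPKM in NC and passed the filter only through their COM samples, so the count of 9 is a description. Gbp5 rose by 4.61 ± 0.61 and Gbp6 by 4.57 ± 0.53, and the smallest changes were those of Gbp7 (1.97 ± 0.46) and Gbp8 (1.34 ± 0.47). The COM values of Gbp5 were 45.0, 48.4, 49.4, 274, 260 and 344 FPKM, beside 256 to 294 FPKM in COM+Met.

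The machinery that conjugates ATG8 proteins to membranes, which directs the GTPases to vacuoles, did not follow them. Of 12 genes tested 0 rose in COM and 1 fell, Atg7, the enzyme that activates ATG8 proteins (-1.10 ± 0.24, limma adjusted p = 0.00200). Their median of -0.28 stood beside the -0.27 of all genes. Atg10 (0.40) and Atg12 (0.38) were the highest and Map1lc3a gave -0.76 (limma adjusted p = 0.0595). Of 8 genes of ubiquitin marking on vacuoles, 2 rose and 0 fell, Ube2l6 (3.20 ± 0.11), the conjugating enzyme for ISG15, and Trim21 (1.61 ± 0.28). Calcoco1 (-0.79) and Optn (-0.66) were the lowest and short of 2-fold.

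Other genes of IRG type varied. Of 10 listed, 7 were tested in COM against NC, of which 3 rose and 1 fell. Gm4951 (2.53 ± 0.47) and Gm5431 (2.43 ± 0.52) had the largest rises. Irgc1, known from testis, fell by 1.90 on the log2 scale (SE 0.17, limma adjusted p = 2.44e-06). It measured 2.03 to 5.67 FPKM in NC and at most 0.199 FPKM in COM, so it passed the filter only through NC. Gm4951, at a mean of 0.552 FPKM in NC, passed it only through COM. Both calls and this p-value are therefore a description. Irgq gave 0.06 (limma adjusted p = 0.693). In COM+Met against COM, 0 genes of the ligand, receptor, transcription factor, inhibitor, GBP, ATG8, ubiquitin and IRG-like lists were called in either direction, with GBPs at a median of 0.85 and the other lists between -0.07 and 0.20. In COM+Met against NC, 5.66% of all genes tested were called higher and 13.6% lower. The calls in these lists were 3 higher and 1 lower for ligands, all of them interleukins. They were 2 and 1 for receptors, 7 and 0 for transcription factors, 4 and 0 for inhibitors and 9 and 0 for GBPs. For ATG8 conjugation they were 0 and 2, for ubiquitin marking 3 and 0 and for IRG-like genes 3 and 1.

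Of 23 protein-coding genes within 100 kb of a member, 17 were tested in COM against NC, and 4 were called higher and 2 lower, beside 5.99% and 11.7% of all genes tested. Named after their values were seen, the higher ones were Gm5431, Psme2b (1.53), Olfr56 (2.04) and F830016B08Rik (1.44). Of these, Gm5431 and F830016B08Rik were already counted among the IRG-like genes that rose. F830016B08Rik and Olfr56, at NC means of 0.118 and 0.141 FPKM, passed the filter only through their COM samples. Reads of Olfr56 and Ifi47 may be mixed, since 111 exonic base pairs are shared. The lower ones were Rack1, a ribosomal scaffold protein (-1.32), and 4930438A08Rik (-1.01), 55534 and 52017 base pairs from Irgm1 and Irgm2. The genes next to the cluster of Igtp and Irgm2 such as Mrpl22, a mitochondrial ribosomal protein 8174 base pairs from Gm12250, gave -0.33 (limma adjusted p = 0.0540).

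Across the 18 samples the 21 pairs of members correlated at 0.887 to 0.995 (Pearson, log2 values). Within groups of 6 they correlated at 0.478 to 0.986 in NC, at 0.931 to 0.999 in COM and at -0.905 (Irgm2 with Iigp1) to 0.866 (Tgtp1 with Tgtp2) in COM+Met. The genes outside the family whose pattern was most like the members' mean, of 10734 with a mean of at least 1 FPKM, were Gbp4 (0.998), Cmpk2 (0.997), Mx2 (0.996), Ifit1bl1 (0.995) and Pik3ap1 (0.995). For Irgm1 the first was Rnf213 (0.998), for Irgm2 Cmpk2 (0.997), for Igtp Trim21 (0.996), for Iigp1 Trim30b (0.991), for Tgtp1 Tnfsf10 (0.997), for Tgtp2 Gbp4 (0.998) and for Ifi47 Ifit3 (0.997). Over the 6 COM samples alone, the first were Rsad2, Ifit2, Clic5, Gbp2 and Tnfaip3, each at 0.999 or above. These are descriptions over samples that share groups and libraries.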

How the data were processed

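TruSeq libraries of 18 samples were sequenced, 6 each of NC, COM and COM+Met, grouped by the sample labels. The authors deposited FPKM values per gene and sample. Per the labels, the submitters' processing notes name Bowtie 0.12.2, mm8 and mm9, and the quantifier is not given in the sources used here. FPKM values gave no read depth, so no counting interval could be given, and since FPKM is relative to the sample total, a rise of abundant genes lowers the rest.

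Values were taken as log2(FPKM + 1). For each comparison of 12 samples, a gene averaging 1 FPKM or more entered a fit by limma 3.58.1 (lmFit, eBayes with trend; R 4.3.3), and p-values were adjusted by Benjamini-Hochberg across the genes entered. The procedure was tested on simulated data. Members were also compared by exact permutation over samples. Python 3.11.15 and pandas 2.3.3 were used for the rest. Alternatives were pseudocounts of 0.1 and 5, no filter and one of 5 FPKM, TPM, size factors, quantile normalisation, a replicate block, all 18 samples, sample weights and samples left out. The members and lists were chosen with earlier results of these data known. Named genes were all members, ligands, receptors and transcription factors (1 of which is not reported here), the 2 highest and 2 lowest of each other list, and the 5 genes most like the members. No protein sequence was used here.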

Additional observations from a re-analysis of the deposited data

Results flagged for a closer look

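Of 21 sets of 6 samples (7 members in 3 groups), 1 held a sample far from the others. Irgm2 measured 49.7 FPKM in COM+Met-1, and the nearest of the other 5 samples was at 45.7 FPKM, a gap of 0.762 of the whole range of the group. Chance flags about 1 in 20 such sets. The value lay between the COM-1 to COM-3 and the COM-4 to COM-6 values of Irgm2 like those of the other COM+Met samples.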

How the results depend on the processing

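In COM against NC and COM+Met against NC, the count of members called higher stayed at 5 to 7 of 7 under every alternative run, with 0 lower, and no member changed direction. The counts in COM+Met against COM are a description. There 6 members were called higher with sample weights and 7 without COM-4 to COM-6, and 3 were called lower without COM-1 to COM-3. In that last setting all 7 differences turned negative, at -0.11 (Irgm1), -0.59 (Irgm2), -0.44 (Igtp), -1.13 (Iigp1), -1.61 (Tgtp1), -1.16 (Tgtp2) and -0.29 (Ifi47). Tgtp1 also turned negative with a pseudocount of 5 (-0.025), and ran from -0.083 to 0.74 over the fits that left out 1 sample, negative when 1 of the COM-1 to COM-3 samples was missing. Counts of all genes called fell with a pseudocount of 5 from 1926 to 980 in COM against NC, from 230 to 90 in COM+Met against COM and from 2078 to 1117 in COM+Met against NC. In COM+Met against COM they rose to 370 with a pseudocount of 0.1, to 719 with sample weights and to 771 without COM-4 to COM-6. The cause of these changes was not tested.

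Same-numbered samples of 2 groups had deviations that correlated at -0.22 to 0.057, so the numbers were not taken to pair them. With a replicate block 7, 0 and 7 members were called higher in COM against NC, COM+Met against COM and COM+Met against NC, and 1920, 202 and 2080 genes were called in all. Depth is unknown, so the precision of values below 1 FPKM, such as those of Iigp1, Tgtp1 and Tgtp2 in NC, cannot be given.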
